A study of Mus musculus with 6 samples.

Results

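The nuclear hormone receptors are a family of transcription factors that bind DNA and, in most cases, a small fat-soluble ligand such as retinoic acid, an oxysterol, a fatty acid, thyroid hormone, vitamin D or a steroid. The genes described here are 44 members of this family, chosen by gene symbol from the 21959 genes of the count table. Hnf4a and Hnf4g were left out by the rule. The expression of the 44 genes was compared between MPC-PTX, the line labelled as paclitaxel-resistant, and MPC, its parental line.

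MPC is a mouse gastric adenocarcinoma cell line of the genotype CDH1-/-;Trp53-/-, and MPC-PTX is the derivative that went through over 30 cycles of paclitaxel (PTX), a drug that stabilises microtubules. Both lines therefore lack the same pair of tumour suppressors, and the cells came from gastric organoids of floxed mice in which a Mist1-CreER transgene was switched on with tamoxifen, followed by growth under the skin of a nude mouse. Each line was taken as a single clone. A difference between the lines is therefore one between 2 clones as well as between cells with and without those paclitaxel cycles. RNA was sequenced from 3 MPC and 3 MPC-PTX libraries, all labelled as batch 1, and both lines were grown in medium with 10% serum, which itself carries hormones and lipids. The labels do not say that the replicates were separate cultures, so the p-values measure only the spread between these libraries.

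A nuclear receptor typically sits on a short DNA sequence built from copies of a hexamer element, often as a dimer with one of the retinoid X receptors (RXR). Without ligand, many of them hold corepressor complexes with a histone deacetylase. With ligand they exchange these for coactivators that acetylate or methylate histones. Other members are orphan receptors, which act without a known hormone, or are controlled mainly by how much of them is made. In the stomach, retinoic acid, bile acid and fatty acid receptors are known for roles in epithelial differentiation and metabolism.

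The letters upstream of 4 members are shown here, because the values of these genes lead the sections that follow. They are from RefSeq windows on GRCm38.p6 that run from 250 bases before to 50 after a gene's start, in which 41 of the 44 members matched (all but Nr3c1, Nr5a1 and Thra), with 61 windows of 32851 in all. The motif search was chosen after the expression values had been seen. Capitals mark the letters of the motif named beside each gene, and stretches inside an annotated exon of the gene were left out, except for 30 bases of Rarb.
Rarb, the direct repeat of GGTTCA and AGTTCA, chr14:16575506-16575535, minus strand: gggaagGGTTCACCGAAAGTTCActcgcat
Thrb, the hexamer AGGTCA, chr14:17660710-17660891, plus strand: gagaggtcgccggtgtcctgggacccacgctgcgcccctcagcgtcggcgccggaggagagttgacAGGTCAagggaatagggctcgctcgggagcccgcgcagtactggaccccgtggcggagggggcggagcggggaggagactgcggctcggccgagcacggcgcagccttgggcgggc
Nr1d2, the hexamer AGGTCA, chr14:18239128-18239356, minus strand: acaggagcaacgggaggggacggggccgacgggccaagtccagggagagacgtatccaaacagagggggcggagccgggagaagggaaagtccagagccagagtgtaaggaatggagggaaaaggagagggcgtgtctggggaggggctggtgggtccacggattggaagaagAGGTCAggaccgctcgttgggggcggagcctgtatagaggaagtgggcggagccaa
Esr2, the E-box CACGTG, chr12:76177260-76177509, minus strand: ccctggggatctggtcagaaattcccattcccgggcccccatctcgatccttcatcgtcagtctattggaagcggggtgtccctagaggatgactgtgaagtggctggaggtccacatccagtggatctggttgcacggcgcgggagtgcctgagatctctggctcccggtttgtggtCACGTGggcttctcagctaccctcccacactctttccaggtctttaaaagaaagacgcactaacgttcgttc

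Rarb held a direct repeat of 2 hexamers, GGTTCA and AGTTCA, 5 bases apart, 53 to 37 bases before its RefSeq start. The same spaced letters, searched on both strands, stood in 2 of the 32851 windows (0.00609%). The single hexamer AGGTCA was found in 12 of the 61 member windows, of 11 genes that included Thrb and Nr1d2, against 16.3% of all windows. The hexamers AGTTCA and GGTTCA stood in 9 and 6 member windows, against 14% and 10.4% of all windows, and both matches in Rarb are the arms of its repeat. A repeat of AGGTCA with 4 bases between its copies and the palindrome of GGTCA and TGACC with 3 bases between them, also searched on both strands, were in 0 member windows (0.0152% and 0.07% of all). The E-box CACGTG stood in 6 of the 61 member windows (of Esr2, Nr0b2, Nr1i3, Rara and Thrb), against 7.15% of all windows, and TGACG, the core of the cAMP response element, in 17 member windows, those of all 3 NR4A genes among them, against 20.8%. A match is a run of letters and not a measured binding site, and gene counts do not tell which start of a gene was in use.

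The libraries held 16574580 to 23148182 counts, with 13897 to 14295 genes detected in each. MPC replicate 3 stood apart from the other MPC libraries. Across 11776 genes its deviation from the mean of the other libraries of its line correlated with GC content at a Spearman rho of -0.584 and with transcript length at 0.449, while MPC replicates 1 and 2 gave 0.467 and 0.353 for GC and -0.402 and -0.211 for length, which describes genes of one table and not independent replicates. The counts of members called higher and lower are therefore also given without MPC replicate 3, an alternative that also leaves fewer libraries. Of 16 gastric and simple epithelial markers, 6 were over 1 CPM (the count relative to the library's size, after scaling for its composition). They were the keratins Krt7, Krt8, Krt18 and Krt19, Epcam and Cldn18, and the 16 summed to 8838 to 10218 CPM in MPC and 5368 to 5531 in MPC-PTX, while the stomach-defining Tff1, Tff2, Gkn2 and Pgc were at 0 in every library. Markers of other cells were low in both lines, with 8 fibroblast markers summing to 9.83 to 10.9 CPM in MPC and 8.63 to 9.92 in MPC-PTX, 8 leukocyte markers to 11.1 to 12.6 and 9.39 to 10.7 (nearly all Cd68), and 6 endothelial markers to 3.40 to 4.83 and 3.07 to 3.39. Of 4 steroid-producing cell markers only Star was over 1 CPM, and the 4 summed to 3.56 to 6.01 CPM in MPC and 7.69 to 9.02 in MPC-PTX.

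Most of the expressed receptors differed by less than 2-fold between the lines. Of the 44 genes, 27 had enough counts to be tested, and 7 of these differed at an adjusted p below 0.05 (25.9%, against 29.7% of the 11795 genes tested). Thrb, Esr1, Rarb, Nr2f2 and Thra were higher in MPC-PTX (5 of 27, against 14.1% of all genes), and Pparg and Nr2c1 were lower (2 of 27, against 15.6%). Thrb alone passed with a change of more than 2-fold (1 of 27, against 7.73%). In bulk RNA, fewer cells that express a gene and less of its RNA per cell cannot be told apart. The median log2 fold change of the 27 was 0.10, and that of all tested genes 0.04. In 10 of the 27 the libraries of the lines did not overlap in CPM, against 46.9% of all genes.

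The counts of called members moved with the library that stood apart. Without MPC replicate 3, 9 members were higher and 5 lower of 29 tested, while the share called among all genes rose to 52.5%. Of the 9, Esr2 (0 and 0 counts in the MPC libraries left) and Nr4a3 (1 and 3) came over the count filter there only through MPC-PTX. With Thrb they made up the 3 members called over 2-fold in that fit. After a correction for GC content and length within each library 6 were higher and 4 lower of 27, with 40.2% of all genes called. The shares of members called, 25.9%, 48.3% and 37%, were each near that of all genes in the same fit.

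**Figure D1:**
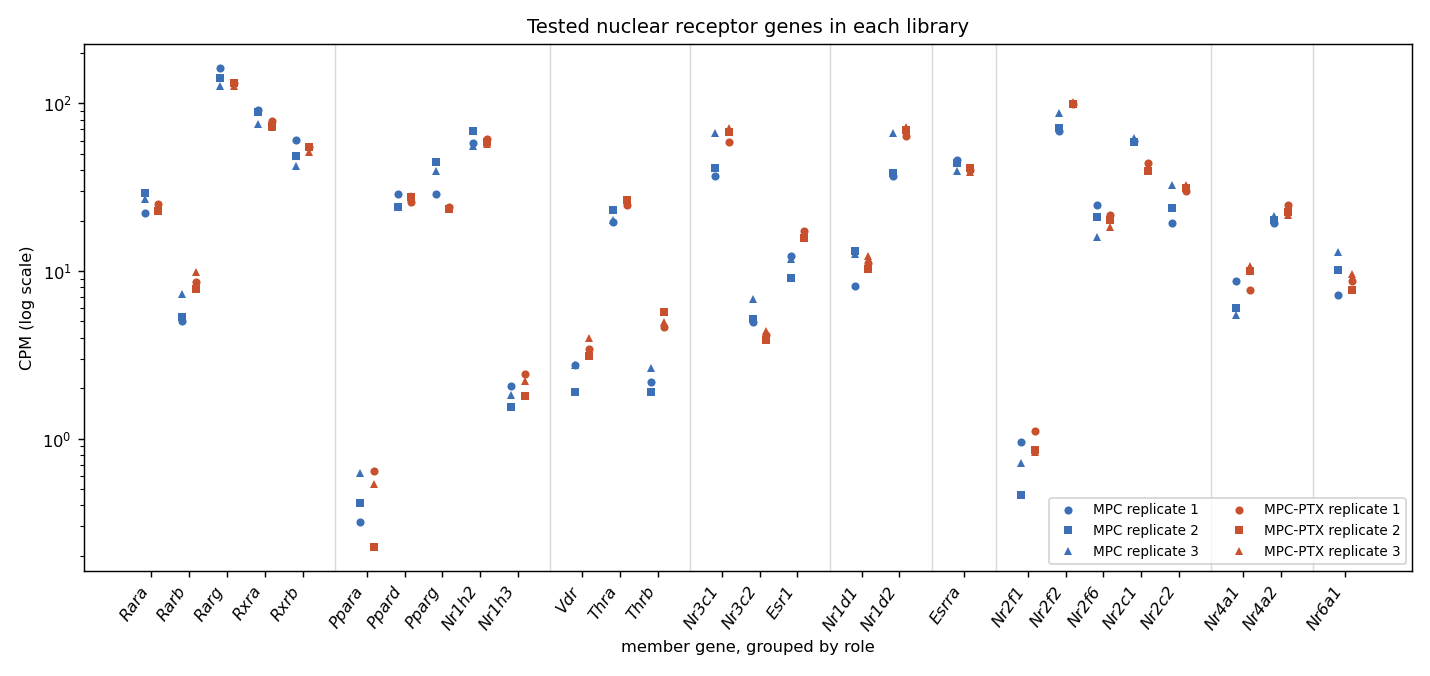
Level of each of the 27 tested receptor genes in each library, in CPM on a log axis, with genes grouped by role and 1 point per library. For Thrb the 3 MPC libraries sit between 1.91 and 2.64 CPM and the 3 MPC-PTX libraries between 4.66 and 5.68, while for most other genes the points of the 2 lines lie close together or overlap.

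Levels of different genes were compared per transcript length, in TPM, the count per exon length scaled to the same sum in every library. Rarg, the retinoic acid receptor of epithelia, was the most abundant member, at a mean over all libraries of 106 TPM, followed by Nr1h2 (LXR beta, an oxysterol receptor) at 59.1, Rxra at 48.2 and Rxrb at 43.3 TPM. Nr2c1, Nr1d2, Pparg and Nr2f2 followed at 36.5, 35.6, 34.3 and 33.9 TPM, values closer to each other than the spread of Pparg or Nr1d2 over the MPC libraries (SD 9.83 and 11.1 TPM). Esrra was at 31.3 TPM, Nr3c1 at 24.8, Nr2f6 at 22.3, Rara at 19.0, Nr4a2 at 17.6, Thra at 16.9, Nr1d1 at 12.2 and Ppard at 11.6, so that 16 members had at least 10 TPM. Another 9, from Nr4a1 at 7.66 down to Thrb at 1.66 TPM, were at or above 1 TPM. Nr2f1 (0.535 TPM) and Ppara (0.398 TPM) were the lowest of the tested genes.

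A further 17 members were too low to test, and 6 of them had no count in any library: Pgr (the progesterone receptor), Nr1i3 (the xenobiotic receptor CAR), the tailless receptor Nr2e1 and the photoreceptor gene Nr2e3, and Nr0b1 and Nr0b2, receptors that lack a DNA-binding domain. Each line's total of 0 allows up to 3 counts. Another 8 members were at most at 3 counts in every library. Over the 3 libraries of each line, Rxrg had 2 counts in MPC and 0 in MPC-PTX, Nr1h4 (the bile acid receptor FXR) 3 and 3, Nr1i2 (the xenobiotic receptor PXR) 3 and 0, Rorb 4 and 0, Rora 0 and 1, Esrrg 1 and 0, Nr5a1 3 and 4, and Nr5a2 1 and 5. Esrrb had 12 and 7 counts, a ratio of 0.566 with a 95% counting interval of 0.189 to 1.56. At this depth a difference in these genes was not detectable. The other two, Esr2 and Nr4a3, are described with their families.

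Of the thyroid hormone and vitamin D receptors, Thrb showed the largest change of any tested member. Thrb (ENSMUSG00000021779, 14:17660261-18038090, plus strand, GRCm38) encodes thyroid hormone receptor beta, which binds the hormone T3. Its counts were 41, 37 and 55 in MPC and 109, 126 and 84 in MPC-PTX, or 2.18, 1.91 and 2.64 CPM against 4.66, 5.68 and 4.99. Every MPC-PTX library was above every MPC library. The level rose from 2.24 ± 0.372 to 5.11 ± 0.522 CPM (SD, n = 3), a log2 fold change of 1.18 (SE 0.18, adjusted p = 0.0028). The call held when any 1 library was left out, with log2 fold changes of 1.08 to 1.27 and adjusted p of at most 0.0191.

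Thra (ENSMUSG00000058756, 11:98740638-98769006), which encodes the more widely expressed receptor alpha, was at 19.7, 23 and 20.1 CPM in MPC and 24.9, 26.6 and 26.4 in MPC-PTX. The libraries did not overlap, and the log2 fold change was 0.31 (SE 0.09, adjusted p = 0.0434). This call was lost with DESeq2 (adjusted p = 0.133), with its size factors, with either other count filter, with the replicate block (adjusted p = 0.0577) and when any library but MPC replicate 2 was left out (adjusted p 0.0654 to 0.159), without MPC replicate 3 at 0.0809. Thra and the oppositely directed Nr1d1 share 263 exon bases, and their reads cannot be told apart there if strand was not used in counting. Of the summed TPM of the pair Thra and Thrb, Thrb made up 4.91 to 7.56% in MPC and 10.4 to 11.8% in MPC-PTX. Thra remained the dominant form in both lines. Vdr, the vitamin D receptor, was at 1.91 to 2.76 CPM in MPC and 3.11 to 3.98 in MPC-PTX, with a log2 fold change of 0.50 that did not pass (adjusted p = 0.108).

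Thrb lies between Rarb and Nr1d2 on chromosome 14, with Rarb at 14:16430839-16819156 and Nr1d2 at 14:18204054-18239127, both on the minus strand. Their log2 fold changes were 0.57 for Rarb (adjusted p = 0.0436) and 0.54 for Nr1d2 (adjusted p = 0.125). The neighbourhood was examined after these values had been seen. Of the 9 other tested genes within 2 Mb of Thrb, 0 passed by edgeR, with log2 fold changes from -0.12 to 0.47 and a median of 0.02, and the median over 382 tested genes of chromosome 14 was -0.02. Without MPC replicate 3, Top2b (1.02) and Ngly1 (0.30) of the 9 were higher and Rpl15 (-0.23) and Rtraf (-0.18) lower, with adjusted p of 3.4e-05, 0.037, 0.0020 and 0.021. That fit called 52.5% of all genes. On chromosome 11 the members Thra, Nr1d1 and Rara also lie together. Of 80 other tested genes there 9 were higher and 13 lower, against 14.1% and 15.6% of all genes.

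**Figure D2:**
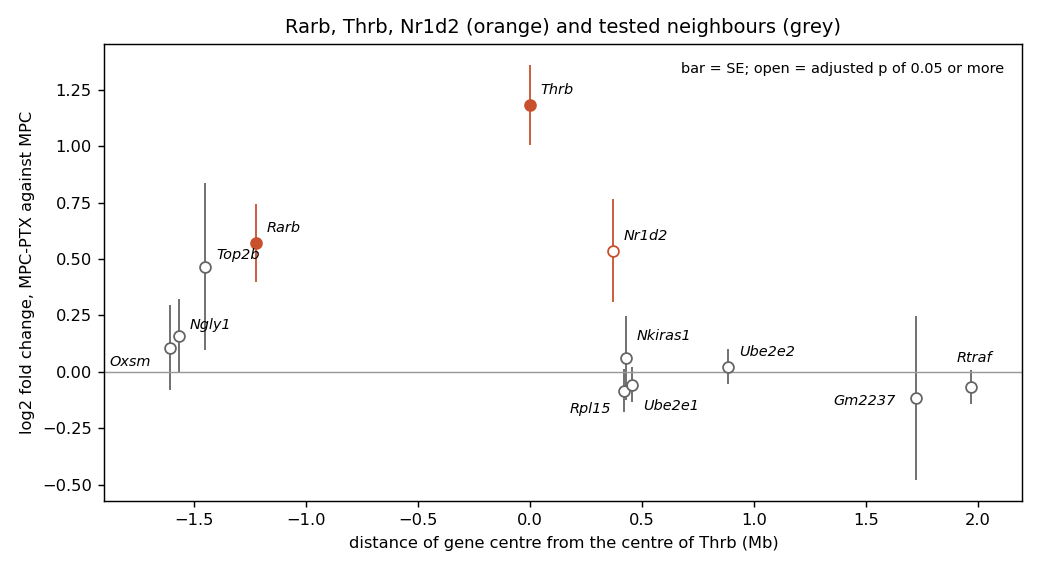
Log2 fold change (MPC-PTX against MPC, all 6 libraries) with its standard error of each tested gene within 2 Mb of Thrb, by the distance between gene centres in Mb. Filled points passed the test. Thrb at 1.18 stands above the 9 grey neighbours, which run from -0.12 to 0.47, and Rarb and Nr1d2 lie between.

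Among the retinoid receptors, which answer to vitamin A acids, the rare form Rarb was higher in MPC-PTX and the abundant forms did not pass. Rarb (ENSMUSG00000017491) encodes retinoic acid receptor beta, itself a classical retinoic acid target through the repeat shown above, which lies inside annotated first exons of Rarb. It was at 5.05, 5.31 and 7.26 CPM in MPC and 8.63, 7.84 and 9.80 in MPC-PTX. The libraries did not overlap, though MPC replicate 3 came close to the lowest MPC-PTX library. The log2 fold change was 0.57 (SE 0.17, adjusted p = 0.0436), rising to 0.70 (adjusted p = 0.0035) without MPC replicate 3, and the call was lost when any other library was left out (adjusted p 0.0794 to 0.151). Rarb shares 1793 of its 5265 exon bases with the oppositely directed Top2b, so reads of the pair cannot be told apart where strand was not used. The log2 fold change of Top2b was 0.47 (adjusted p = 0.384), and 1.02 (adjusted p = 3.4e-05) without MPC replicate 3.

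Rarg was at 163, 142 and 127 CPM in MPC and 133, 132 and 127 in MPC-PTX, a log2 fold change of -0.14 (adjusted p = 0.301). Rara (alpha) was at 22.3 to 29.4 and 22.8 to 25.2 CPM, with a log2 fold change of -0.14 (adjusted p = 0.422). Both overlapped between the lines. Per length, Rarg made up 79.8 to 86.3% of the summed RAR level in MPC and 80.3 to 82.2% in MPC-PTX, while Rarb made up 2.17 to 3.68% in MPC and 3.94 to 5.02% in MPC-PTX. The summed RAR level itself was 131 ± 5.38 TPM and 129 ± 1.74 TPM (SD, n = 3).

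Of the RXR partners, Rxra was at 90.8, 89.1 and 75.4 CPM in MPC and 78.8, 73.2 and 72.0 in MPC-PTX (log2 fold change -0.19, adjusted p = 0.162), and MPC replicate 3 was level with the MPC-PTX libraries. Rxrb was at 42.3 to 60.0 and 51.4 to 55.1 CPM (log2 fold change 0.10, adjusted p = 0.6). The share of Rxra in the summed RXR level was 52.4 to 57.1% in MPC and 49.2 to 51.0% in MPC-PTX, without overlap. Without MPC replicate 3, Rxra (-0.32, adjusted p = 0.0015) and Rarg (-0.27, adjusted p = 0.0032) passed as lower. Rxra also passed as lower with the GC and length correction (-0.18, adjusted p = 0.0454), and Rarg did not (-0.13, adjusted p = 0.0772).

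The genes that make, carry and degrade ligands were next described from a list of 29, of which 14 were tested and 10 passed (71.4%, against 29.7% of all genes), 4 higher and 6 lower, with a median log2 fold change of -0.28. The retinaldehyde dehydrogenase Aldh1a2, which makes retinoic acid, went from 24.8, 24.0 and 21.7 CPM in MPC to 7.43, 7.30 and 6.83 in MPC-PTX, a log2 fold change of -1.71 (adjusted p = 4.5e-05). Its relative Aldh1a7 (-1.59) and the retinoic acid-degrading enzyme Cyp26b1 (-1.5) fell as well, with adjusted p of 0.0036 and 0.0084. Cyp27a1, a sterol 27-hydroxylase, had 0, 4 and 0 counts in MPC and 30, 23 and 22 in MPC-PTX. It passed the count filter only through MPC-PTX, and its fitted value depended on the 4 counts of MPC replicate 2 (a log2 fold change of 4.03 with and 7.63 without that library). Crabp2, which delivers retinoic acid to the RARs, rose from 15.9 ± 4.28 to 29.7 ± 1.15 CPM (log2 fold change 0.90, adjusted p = 0.0094). The listed genes thus did not move one way.

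Of 13 listed retinoic acid receptor targets, 8 were tested and all 8 passed (100%, against 29.7% of all genes), 4 higher and 4 lower, with a median of 0.02. Crabp2 and Cyp26b1 are also on the ligand list. Beside them Tgm2, a transglutaminase, was lower (68.6, 73.9 and 62.4 against 20.8, 19.6 and 17.9 CPM, log2 fold change -1.81, adjusted p = 3.8e-05), as was Tnfaip2 (-0.61, adjusted p = 0.0019).

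The lipid sensors included 1 of the 2 members that fell. Pparg (ENSMUSG00000000440, 6:115360951-115490399), the fatty acid receptor of fat cells that is also made in gut epithelia, was at 28.9, 44.7 and 39.6 CPM in MPC and 24.1, 23.4 and 23.9 in MPC-PTX. The libraries did not overlap, and the MPC libraries spread far more than the MPC-PTX libraries. The level fell from 37.7 ± 8.07 to 23.8 ± 0.331 CPM (SD, n = 3), a log2 fold change of -0.67 (SE 0.16, adjusted p = 0.0168). The call held without MPC replicate 1 (-0.83, adjusted p = 0.00057) and without MPC replicate 3 (-0.68, adjusted p = 0.0090), and was lost without MPC replicate 2 (-0.53, adjusted p = 0.0594) or without MPC-PTX replicate 1, 2 or 3 (adjusted p of 0.0644, 0.07 and 0.0666).

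Ppard, the widely expressed form, was at 24.0 to 29.0 CPM in MPC and 25.7 to 28.2 in MPC-PTX (log2 fold change 0.08), and Ppara at 0.319 to 0.625 and 0.225 to 0.641 CPM (0.03). Neither passed, with adjusted p of 0.579 and 0.971. Pparg made up 71.3 to 82.1% of the summed PPAR level in MPC and 67.5 to 69.4% in MPC-PTX. The oxysterol receptors Nr1h2 (55.4 to 68.5 and 57.3 to 61.4 CPM, log2 fold change -0.03) and Nr1h3 (1.55 to 2.07 and 1.80 to 2.43 CPM, 0.24) overlapped between the lines as well, with adjusted p of 0.812 and 0.426.

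Of 24 listed PPAR targets, 17 were tested, and 3 were higher and 3 lower (35.3%). Vnn1, a pantetheinase, rose from 73.5, 72.8 and 68.6 CPM in MPC to 228, 227 and 233 in MPC-PTX (log2 fold change 1.68, adjusted p = 8.8e-06). The acyl-CoA thioesterases Acot1 (2.80) and Acot2 (1.05) rose too, with adjusted p of 0.00016 and 0.0028. Pdk4, which shuts down pyruvate oxidation, fell from 2.97 ± 0.306 to 0.577 ± 0.458 CPM (log2 fold change -2.38, adjusted p = 0.0143), and the fatty acid oxidation genes Slc25a20 (-0.34) and Acaa1a (-0.27) fell less, with adjusted p of 0.0431 and 0.0441. Pdk4 dropped out where at least 10 counts were required in every library, so it passed the count filter through MPC. That fit tested 14 of these targets, 3 higher and 2 lower (35.7%, against 26.9% of all genes).

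Of 13 listed LXR targets, 9 were tested, 4 higher and 1 lower (55.6%), with a median of 0.32. Scd1, a fatty acid desaturase, went from 37.4, 25.1 and 24.3 CPM in MPC to 202, 194 and 203 in MPC-PTX (log2 fold change 2.79, adjusted p = 8.3e-05). The phospholipid transfer protein Pltp (2.32, adjusted p = 0.0026) and the cholesterol exporter Abcg1 (0.90, adjusted p = 0.0120) were higher, and Mylip, which degrades the LDL receptor, was lower (-1.79, adjusted p = 0.0424). Mylip was at 1.22 CPM in MPC replicate 1 and at 4.64 and 4.80 in the others, against 0.772 to 1.20 CPM in MPC-PTX, so the lowest MPC library was level with the highest MPC-PTX library. Pltp dropped out where at least 10 counts were required in every library, so it passed the count filter through MPC-PTX. That fit tested 8 of these targets, 2 higher and 1 lower (37.5%, against 26.9% of all genes).

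The xenobiotic and bile acid receptors PXR, CAR and FXR were at 0 to 3 counts a line. Nr1i3 (CAR) shares 3304 of its 4414 exon bases with the oppositely directed Tomm40l, and how reads there were assigned was not tested, so its counts are uncertain. Of 19 listed targets of these receptors 11 were tested, 4 higher and 2 lower (54.5%, against 29.7% of all genes). Abcb1b, a drug efflux pump that exports paclitaxel, rose from 67.4, 64.4 and 74.1 CPM to 285, 289 and 293 (log2 fold change 2.07, adjusted p = 8.8e-06). The neighbouring Abcb1a rose as well (2.19, adjusted p = 3.8e-05). Abcb4, a phospholipid transporter beside them, had 5, 8 and 5 counts in MPC and 79, 80 and 60 in MPC-PTX, and Cyp2b10 had 7, 2 and 7 and 16, 24 and 15, so that both passed the count filter only through MPC-PTX. The 3 Abcb genes are similar copies between which reads may be shared. Cyp3a13 fell from 19.6, 22.6 and 22.9 to 3.67, 4.15 and 3.92 CPM (log2 fold change -2.47, adjusted p = 2.2e-05), and the exporter Abcc3 fell by 1.57 on the log2 scale (adjusted p = 2.7e-05).

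Among the steroid hormone receptors, both oestrogen receptors had more reads in MPC-PTX. Esr1 (ENSMUSG00000019768, 10:4611593-5005614), oestrogen receptor alpha, was at 12.3, 9.13 and 11.7 CPM in MPC and 17.4, 15.7 and 16.5 in MPC-PTX, with no overlap. The log2 fold change was 0.58 (SE 0.13, adjusted p = 0.0150). It was 0.35 (adjusted p = 0.136) after the GC and length correction, and the call was also lost without MPC-PTX replicate 1 (adjusted p = 0.0692) or 3 (adjusted p = 0.0590). Esr2 (ENSMUSG00000021055, 12:76120419-76177259), oestrogen receptor beta, had 0, 0 and 0 counts in MPC and 15, 13 and 8 in MPC-PTX. Esr2 was 11.7-fold higher in MPC-PTX with the MPC group set at the 3 counts that a total of 0 allows. That value takes the MPC-PTX total of 36 counts as exact. It fell just under the count filter, and without that filter it passed with an adjusted p of 0.0026 (DESeq2 0.00032).

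Nr3c1, the glucocorticoid receptor, was at 36.8, 41.0 and 66.4 CPM in MPC and 59.2, 67.9 and 71.5 in MPC-PTX. MPC replicate 3 alone lay within the MPC-PTX range, and the log2 fold change of 0.46 did not pass (adjusted p = 0.169). Without that library it was 0.71 (adjusted p = 0.00022), and with the GC and length correction 0.31 (adjusted p = 0.0336). Nr3c2, the mineralocorticoid receptor, was at 4.94 to 6.82 CPM in MPC and 3.88 to 4.4 in MPC-PTX (log2 fold change -0.45, adjusted p = 0.082). It passed as lower with the GC and length correction (-0.51, adjusted p = 0.0212) and without MPC replicate 1 (-0.54, adjusted p = 0.0469). The share of Nr3c1 in the summed level of the pair was 86.3 to 89.1% in MPC and 92.3 to 93.6% in MPC-PTX.

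Of 18 listed glucocorticoid receptor targets, 14 were tested, 3 higher and 3 lower (42.9%), with a median of 0.04. Lcn2, an iron-binding secreted protein, rose from 35.4, 56.0 and 51.5 CPM to 238, 224 and 228 (log2 fold change 2.27, adjusted p = 0.00017). Fkbp5, a co-chaperone of the receptor, rose from 37.5, 31.7 and 31.8 to 64.2, 64.2 and 56.4 CPM (0.87, adjusted p = 0.00087), and Per1 by 0.43 (adjusted p = 0.0198). Ddit4 (-0.86), Anxa1 (-0.70) and Mt1 (-0.38) fell, with adjusted p of 0.00091, 0.00020 and 0.0118. Of 12 oestrogen and progesterone receptor targets, 9 were tested, 2 higher and 2 lower (44.4%). Areg, an EGF receptor ligand, was higher (4.94 ± 1.04 against 8.17 ± 0.552 CPM, log2 fold change 0.73, adjusted p = 0.0183), as was Myb (0.72, adjusted p = 0.0084). Ltf was lower (-0.95, adjusted p = 0.00026). Ihh had 14, 24 and 11 counts in MPC and 1, 2 and 2 in MPC-PTX, and passed the count filter only through MPC. Of 13 vitamin D and thyroid hormone targets, 8 were tested, 1 higher and 2 lower (37.5%), and 0 higher and 1 lower without MPC replicate 2 or without any 1 MPC-PTX replicate. Spp1 (osteopontin) was higher (0.35, adjusted p = 0.0198), and the calcium-binding S100g (-1.20, adjusted p = 0.0165) and malic enzyme Me1 (-1.11, adjusted p = 3.5e-05) were lower.

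The REV-ERB receptors repress core clock genes when bound to haem, and the ROR receptors occupy the same elements. Nr1d2 (REV-ERB beta) was at 36.7, 38.2 and 66.3 CPM in MPC and 63.8, 69.2 and 71.9 in MPC-PTX. As with Nr3c1, MPC replicate 3 fell into the MPC-PTX range. The log2 fold change of 0.54 did not pass with all libraries (adjusted p = 0.125), and was 0.81 without MPC replicate 3 (adjusted p = 2.3e-05) and 0.44 with the GC and length correction (adjusted p = 0.0175). Nr1d1 (REV-ERB alpha) was at 8.18 to 13.1 and 10.3 to 12.3 CPM (log2 fold change -0.01, adjusted p = 0.983), and Nr1d2 made up 62.3 to 75.0% of the pair in MPC and 76.4 to 79.2% in MPC-PTX. Of 15 listed clock genes, 13 were tested, 5 were higher and 0 lower by edgeR (38.5%, against 29.7% of all genes), with a median of 0.43. When MPC replicate 3 was left out, 7 were higher and 0 lower (53.8%, against 52.5%). Without MPC replicate 2, or without MPC-PTX replicate 1, 2 or 3, only 2 were higher (15.4%, against 16 to 18% of all genes). Without MPC replicate 1, 8 were higher and 0 lower (61.5%, against 36%). The replicate block gave 7 higher and 0 lower (53.8%, against 29.7%), as did the GC and length correction (53.8%, against 40.2%). The 5 included Per2 (16.8, 11.6 and 14.9 CPM in MPC, 24.3, 26.0 and 25.4 in MPC-PTX, log2 fold change 0.81, adjusted p = 0.0050), Bhlhe41 (0.75, adjusted p = 0.0025) and Cry1 (0.69, adjusted p = 0.0405). Per1 and Per3 were the other two, and whether the libraries were collected at the same hour is not given in the sources used here.

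**Figure D3:**
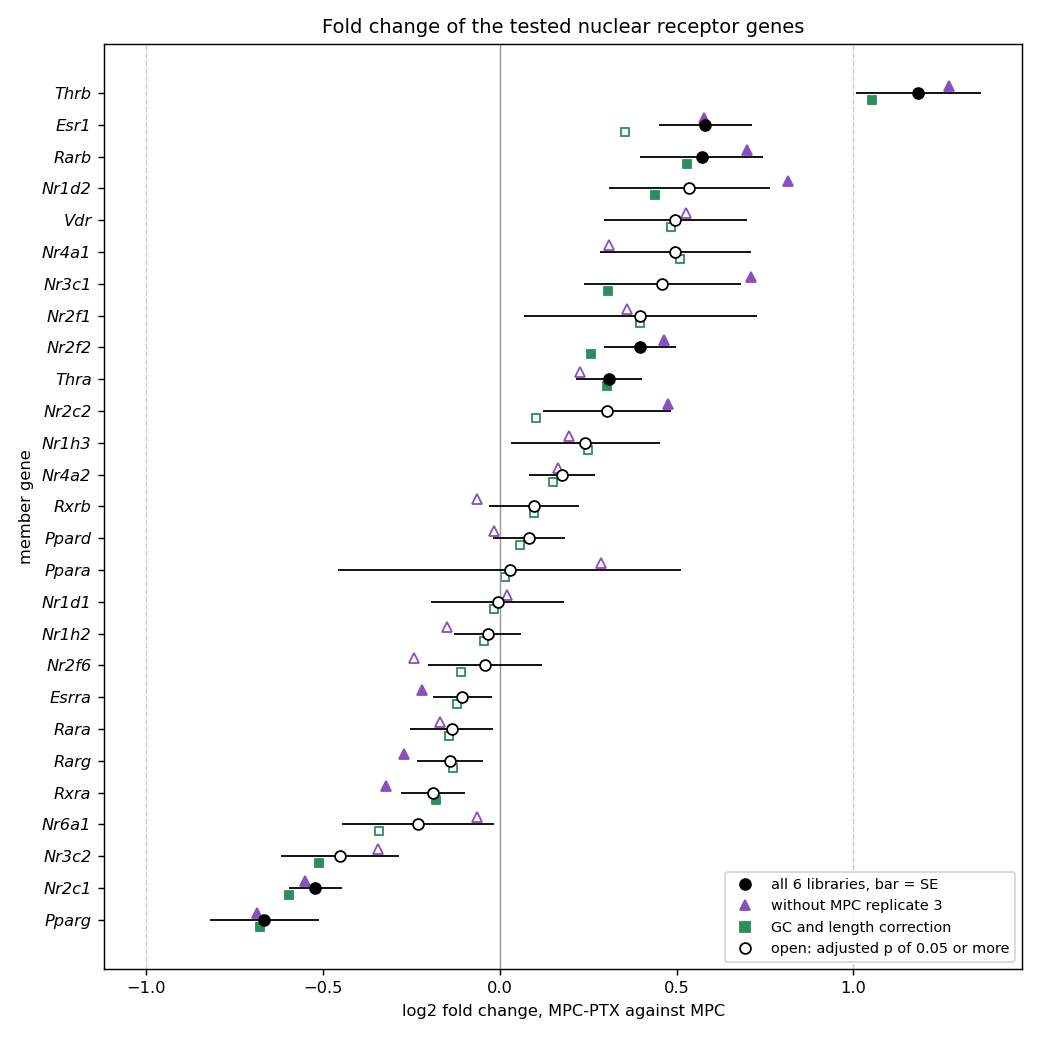
Log2 fold change (MPC-PTX against MPC) of the 27 tested receptor genes, ordered by size, from all 6 libraries (circles, bars are standard errors), without MPC replicate 3 (triangles) and with a GC and length correction (squares). Filled symbols passed the test at an adjusted p below 0.05. Thrb at 1.18, Nr2c1 at -0.52, Pparg, Rarb and Nr2f2 are filled in all 3 fits. Nr1d2, Nr3c1 and Rxra are open with all libraries and filled in both other fits.

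Among the orphan receptors, Nr2c1 and Nr2f2 moved in opposite directions. Nr2c1 (ENSMUSG00000005897, 10:94148023-94197211), testicular receptor TR2, was at 60.0, 58.6 and 62.1 CPM in MPC and 44.3, 39.3 and 42.3 in MPC-PTX. The lines were well apart in all libraries. The level fell from 60.2 ± 1.74 to 42.0 ± 2.51 CPM (SD, n = 3), a log2 fold change of -0.52 (SE 0.08, adjusted p = 0.0025), and the call held when any 1 library was left out (adjusted p of at most 0.021). Its partner Nr2c2 (TR4) was at 19.3, 23.8 and 32.6 CPM in MPC and 29.8, 31.1 and 32.6 in MPC-PTX (log2 fold change 0.30, adjusted p = 0.251), or 0.48 (adjusted p = 0.0045) without MPC replicate 3. Nr2c2 shares 4590 of 14935 exon bases with the oppositely directed Mrps25. Nr2c1 made up 86.1 to 91.0% of the summed level of the pair in MPC and 80.4 to 82.8% in MPC-PTX.

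Nr2f2 (ENSMUSG00000030551, 7:70351944-70366735), COUP-TFII, a repressor with roles in mesenchymal and vascular development, was at 68.8, 71.1 and 87.9 CPM in MPC and 98.8, 99.5 and 102 in MPC-PTX. All MPC-PTX libraries were higher. The log2 fold change was 0.40 (SE 0.10, adjusted p = 0.0242), and the call held without MPC replicate 1 (adjusted p = 0.0350) or 3 (adjusted p = 0.00013) and was lost without any other library (adjusted p 0.0803 to 0.0991). Its relatives Nr2f1 (0.464 to 0.956 and 0.832 to 1.11 CPM, log2 fold change 0.40, adjusted p = 0.4) and Nr2f6 (16.0 to 24.7 and 18.2 to 21.5 CPM, -0.04, adjusted p = 0.868) overlapped between the lines, and Nr2f6 shares 1622 of its 2983 exon bases with Ocel1. Esrra, the oestrogen-related receptor that drives mitochondrial genes, was at 45.7, 44.2 and 39.4 CPM in MPC and 39.9, 41.0 and 39.2 in MPC-PTX (log2 fold change -0.11, adjusted p = 0.375), and without MPC replicate 3 it passed as lower (-0.22, adjusted p = 0.0202). Nr6a1, the germ cell nuclear factor, was at 7.17 to 13.1 and 7.75 to 9.57 CPM (-0.23, adjusted p = 0.458).

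The NR4A genes are immediate-early receptors, switched on within minutes by growth signals and acting without a hormone. Nr4a3 (ENSMUSG00000028341) had 1, 3 and 4 counts in MPC and 11, 18 and 13 in MPC-PTX. Every MPC-PTX library was higher, and the ratio of the group totals was 5.10 with a 95% counting interval of 2.36 to 12.6. Nr4a3 was under the count filter, and without that filter the log2 fold change was 2.27 (adjusted p = 0.0156). It came over the filter when some libraries were left out. Of those fits, it did not pass without MPC replicate 2 or without MPC-PTX replicate 3 (adjusted p of at most 0.0559). Nr4a1 was at 8.77, 5.98 and 5.43 CPM in MPC and 7.73, 10.0 and 10.8 in MPC-PTX (log2 fold change 0.50, adjusted p = 0.125), and Nr4a2 at 19.3 to 21.4 and 21.5 to 24.8 CPM (0.18, adjusted p = 0.201). The summed NR4A level was 22.2 ± 0.680 TPM in MPC and 28.8 ± 0.372 TPM in MPC-PTX (SD, n = 3), with Nr4a2 the main form in both lines.

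**Figure D4:**
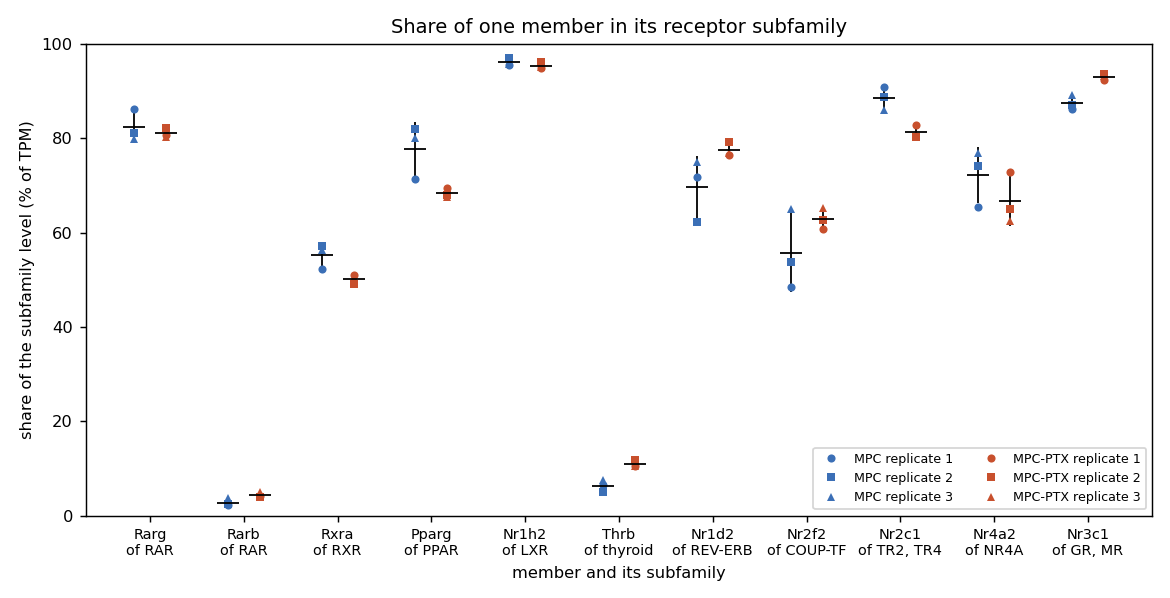
Share of one member in the summed TPM of its subfamily, in percent, for each library (points), with the mean (horizontal line) and SD (vertical line) of each line. The share of Thrb goes from 6.30 to 10.9% and that of Nr2c1 from 88.6 to 81.3%, while Rarg stays near 82.4 and 81.1% of the retinoic acid receptors.

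The coactivators and corepressors that the receptors recruit were all tested. Of 18 coactivators 1 was higher and 1 lower (11.1%, against 29.7% of all genes), with a median log2 fold change of 0.19. Ppargc1b, a coactivator of mitochondrial and lipid genes, rose from 0.531, 0.464 and 0.336 CPM to 2.01, 1.89 and 2.08 (log2 fold change 2.16, adjusted p = 0.00097). It had under 10 counts in some MPC libraries and passed the count filter only through MPC-PTX. With at least 10 counts required in every library, 17 coactivators were tested, 0 higher and 1 lower. The arginine methyltransferase Carm1 fell from 72.3 ± 1.11 to 58.1 ± 1.13 CPM (log2 fold change -0.32, adjusted p = 0.0091). Of 14 corepressors Hdac3 alone passed (7.14%), from 188, 185 and 166 CPM to 150, 150 and 151 (-0.25, adjusted p = 0.0262). Without MPC replicate 3, 5 coactivators were higher and 3 lower, and 3 corepressors were higher and 3 lower (44.4% and 42.9%, against 52.5% of all genes). With the GC and length correction the shares were 27.8% and 35.7%, against 40.2%. Leaving out MPC replicate 3, the vitamin D and thyroid hormone targets had 3 higher and 2 lower, the xenobiotic and bile acid targets 4 and 4, and the LXR targets 4 and 2. Over all the lists 128 of 179 genes were tested, 28 higher and 23 lower (39.8%, against 29.7% of all genes). With MPC replicate 3 left out, 40 were higher and 32 lower (56.2%, against 52.5%), and the lists were compared with each other only by these counts.

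**Figure D5:**
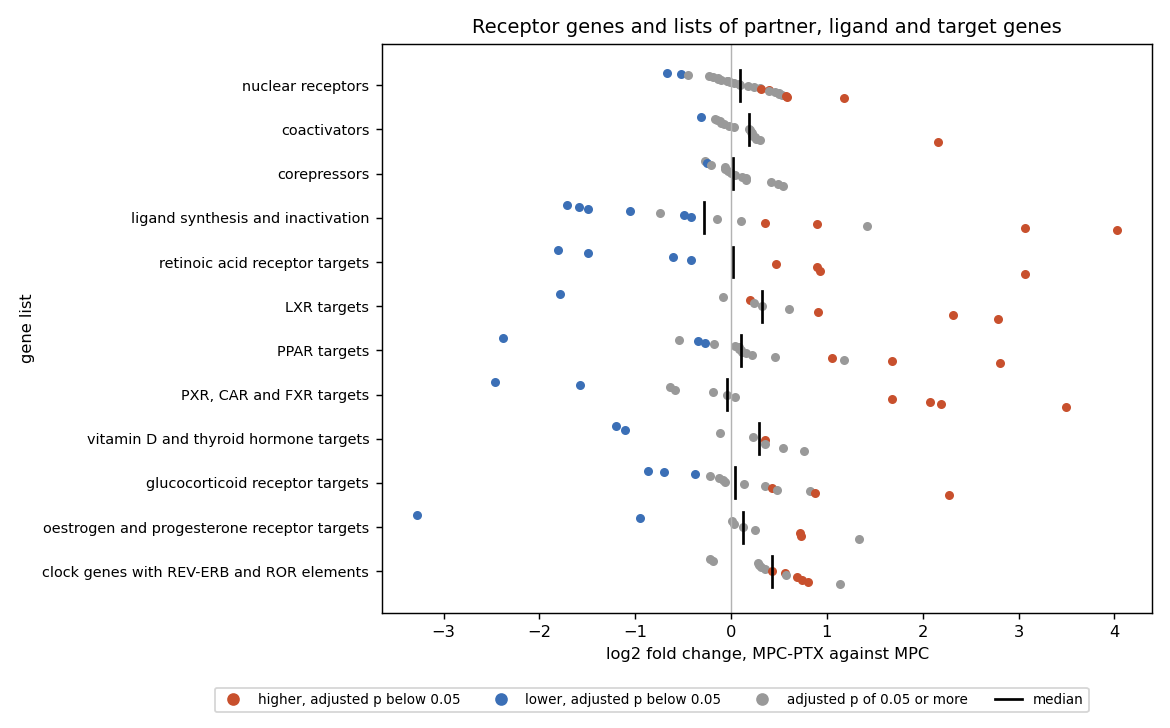
Log2 fold change (MPC-PTX against MPC) of each tested gene, 1 row per list, with higher and lower calls coloured and the median of each list as a vertical line. The receptors themselves lie between -0.67 and 1.18, whereas ligand and target lists hold genes from -3.28 (Ihh) to 4.03 (Cyp27a1), both of which passed the count filter through 1 line only.

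Hnf4a and Hnf4g, receptors of gastrointestinal epithelium outside the 44 members, and Nr1h5, another gene of the family, were tested in the same fit. Hnf4a was at 49.3, 74.3 and 73.2 CPM in MPC and 1.03, 0.857 and 0.951 in MPC-PTX, a log2 fold change of -6.11 (adjusted p = 9.2e-06). Hnf4g (-0.89) and Nr1h5 (-0.06) did not pass, with adjusted p of 0.198 and 0.901.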

How the data were processed

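RNA of 3 MPC and 3 MPC-PTX libraries was measured by poly-A RNA sequencing. The authors filtered reads with fastp 0.22.0 (submitters' processing notes), mapped them with HISAT2 and deposited raw counts per gene and library, neither normalized nor pooled. The genome build, annotation, counting tool and use of strand are not given in the sources used here, so genes with shared exons are uncertain. The 44 members and the gene lists were chosen with earlier results of these data known.

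Low genes were removed with filterByExpr (minimum count 10). Library sizes, 16574580 to 23148182 counts, were adjusted by TMM, and edgeR 4.0.16 (R 4.3.3) quasi-likelihood tests with Benjamini-Hochberg adjustment over 11795 genes gave the calls (adjusted p below 0.05). The fit was tested on simulated data. CPM use the scaled sizes, and TPM the exon length in GENCODE M21 (GRCm38), joined by Ensembl ID, which also gave positions. Alternatives were DESeq2 1.42.0, its size factors, library size alone, no filter, at least 10 counts in every library, a replicate block, a loess correction for GC content and length (span 0.3), and each library left out. Ratios of low counts have Clopper-Pearson intervals, and a total of 0 allows 3 counts. Both describe counting error alone, because PCR copies of a molecule are counted as separate reads. Members passing the test were named with their libraries, as were up to 3 called genes per direction of each list, by size, except for a few genes that are not reported here.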

Additional observations from a re-analysis of the deposited data

How the results depend on the processing

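Thrb and Nr2c1 kept their direction and their call in every alternative tried. Pparg, Nr2f2 and Rarb lost theirs only where 1 library was left out, Esr1 also with the GC and length correction, and Thra also with DESeq2, its size factors, no filter, at least 10 counts in every library and the replicate block. Leaving out 1 library at a time gave 2 to 9 members higher, 1 to 5 lower and 1 to 3 over 2-fold. In the same fits 15 to 32 list genes were lower. The share of members called ran from 10.3 to 48.3% over these fits, and that of all genes from 16 to 52.5%. The most members higher and lower were called without MPC replicate 3, where Esr2 and Nr4a3, admitted through MPC-PTX, were among those higher. The GC and length correction called 4 members lower, namely Nr2c1, Pparg, Nr3c2 and Rxra. With DESeq2 and with no filter 3 members passed over 2-fold, where Esr2 and Nr4a3 joined Thrb. Small uncalled log2 fold changes that changed sign had these ranges over the libraries left out: Rxrb -0.06 to 0.24, Ppara -0.32 to 0.38, Ppard -0.02 to 0.18, Nr1h2 -0.15 to 0.06, Nr1d1 -0.19 to 0.11, Nr2f6 -0.24 to 0.11 and Nr1h5 -0.28 to 0.31. Ppara was also -0.01 with DESeq2 size factors, Nr1h2 0.004 and Nr1d1 0.03 with library size alone, and Nr1d1 0.02 with the replicate block, alone or with the GC and length correction. With the replicate block 6 members were higher and 2 lower (29.6%, against 29.7% of all genes), and Nr1h5 was 0.01. Same-numbered libraries deviated together with r of 0.151, -0.0227 and 0.173, so the numbers were not taken to pair them, and MPC replicate 2 correlated best with MPC-PTX replicate 1 (0.153). The cause of these changes was not tested. With at most 18 counts a library, Esr2 and Nr4a3 are limited by depth.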
